A study of Mus musculus with 2 samples.

Results

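Alpha-2-macroglobulin (A2m), its clearance receptor Lrp1, the serpins Serpinb6b, Serpinb6a, Serpine2, Serpinf1, Serping1 and Serpinh1, and cystatin C (Cst3) were followed in the pregnant mouse uterus. The tissue was uterine wall dissected from between implantation sites on day 8 of pregnancy, from 4-month-old females of a mixed C57Bl/6J X OLA129 background. One group was Cbs null, homozygous for loss of cystathionine beta-synthase, the enzyme that condenses homocysteine with serine, and the other was a control group. RNA of each group was hybridised to 1 Affymetrix array, 2 in total. The labels do not give the altered part of Cbs, the control genotype in more detail, or whether a sample came from 1 animal or a pool. The probe sets were taken by gene symbol from the array annotation, as every probe set that names the gene alone. Of the 9 genes, 8 had such a probe set, out of 12393 genes on the array, and no probe set named a member together with other genes. Serpine2, which encodes protease nexin-1, an inhibitor of thrombin and plasminogen activators, had no probe set under its symbol in the annotation used and is not analysed here. A2m and Serpinb6b were chosen by their signals on these same arrays, for a large drop in Cbs null relative to control, so their ratios are a description of the choice and not a finding.

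Extracellular and intracellular proteolysis is held in check by inhibitors of several families. Alpha-2-macroglobulin is a large secreted trap: a protease cuts its bait region, the molecule closes around the protease, and the complex is taken up through Lrp1, an endocytic receptor of the LDL receptor family. It also binds growth factors and cytokines, and in the rat it is known as an acute-phase protein and a product of decidual cells. Most serpins act as suicide substrates that lock onto a protease through an exposed reactive loop. The clade B serpins work mainly inside cells, whereas Serpinf1 and Serpinh1 have left protease inhibition for other roles. Cystatin C is no serpin but a small secreted inhibitor of cysteine cathepsins.

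Serpinb6b and Serpinb6a are close relatives in a cluster of clade B serpin genes on mouse chromosome 13, and their start regions are printed because the pair parted in the signals below. RefSeq windows (build GRCm38.p6) of 300 bases, from 250 before to 50 after the annotated start, were matched for 7 of the 9 members, the exceptions being A2m and Serping1. Serpinb6a had 2 such windows, and the one at its outer start is shown. Each window runs 5′ to 3′ along the gene's own strand, the plus strand at chr13:32965011-32965310 for Serpinb6b and the minus strand at chr13:34002745-34003044 for Serpinb6a. Capitals mark the STAT motif TTCNNNGAA and the GC box GGGCGG or its complement CCGCCC.
Serpinb6b: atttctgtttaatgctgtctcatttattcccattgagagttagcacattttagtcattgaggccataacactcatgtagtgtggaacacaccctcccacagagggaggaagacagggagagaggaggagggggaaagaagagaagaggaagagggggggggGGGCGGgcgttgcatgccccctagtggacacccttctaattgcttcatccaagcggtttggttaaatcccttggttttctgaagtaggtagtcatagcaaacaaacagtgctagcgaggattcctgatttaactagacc
Serpinb6a: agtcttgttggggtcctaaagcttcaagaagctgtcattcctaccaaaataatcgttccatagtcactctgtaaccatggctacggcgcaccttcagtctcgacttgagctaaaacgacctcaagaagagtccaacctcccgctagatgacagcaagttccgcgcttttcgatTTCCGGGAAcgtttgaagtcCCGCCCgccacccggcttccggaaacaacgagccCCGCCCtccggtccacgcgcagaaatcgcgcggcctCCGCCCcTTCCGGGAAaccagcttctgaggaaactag

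The printed windows differed in base composition and motif content, but the contrast depends on the Serpinb6a start that is shown. The Serpinb6b window held 48.3% G and C with 4 CG pairs, and the Serpinb6a window 55.7% with 25 CG pairs, where the median of the 32851 windows in the table was 52.7% G and C. The second Serpinb6a window, at chr13:33936034-33936333 on the minus strand, held 50% with 5 CG pairs and none of the motifs searched, and so lay closer to that of Serpinb6b. The printed Serpinb6a window held the STAT motif at 2 positions and the GC box at 3, and the Serpinb6b window the GC box at 1 position and no STAT motif. Searched on both strands, the STAT motif occurs in 8.3% and the GC box in 35.7% of all windows. The C/EBP motif TTGCNNAA (10.8% of all windows), the glucocorticoid and progesterone receptor core TGTTCT (19% of all windows) and the TATA box TATAAA (13.6% of all windows) were in neither printed window. The windows of Serpinh1, Lrp1 and Cst3 each held a GC box, and Lrp1 also held the STAT motif. A motif match is a string of letters and no evidence of binding.

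The values are deposited signals in arbitrary linear units, 1 per probe set and array. Weak signals were set to a floor of 43.2, the 40th percentile over the pooled arrays, and genes exceeding it in either sample are called measured. The overall scale was shared, with a median signal of 75.6 in the Cbs null sample and 74.55 in the control sample. Log2 ratios are Cbs null over control throughout, and their median over 8407 measured genes was 0.02. Where a gene had a second probe set, the spread between the pair gave the log2 ratio a technical SD. It was 0.15 if both were bright, at least 4 times the floor, and 0.26 otherwise. This SD measures disagreement between probe sets on the same arrays. It leaves out variation between mice and any effect of dissection, RNA preparation, labelling or hybridisation that both probe sets share. A ratio beyond this SD is therefore not shown to exceed the noise between arrays. With 1 array per group no test was possible, no difference has a replicate check, and a size rule of 2-fold was used to describe genes. The brighter Cbs probe set read 42.6 (under the floor) in the Cbs null sample and 79.8 in the control sample, a drop of 1.85-fold or more. It is not known whether this probe set lies in the altered part of the gene.

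A2m, Serpinb6b and, by a smaller margin, Serpinh1 stood lower in the Cbs null sample, while the remaining inhibitors and the receptor Lrp1 lay close to the control sample. All 8 members with a probe set were above the floor on both arrays. Of the 8, 2 were lower by 2-fold or more, A2m and Serpinb6b, which were chosen for it, and 0 were higher by that margin. Over all measured genes, 0.714% were lower and 0.797% higher by 2-fold or more. The other 6 members had log2 ratios from -0.59 to 0.17 with a median of -0.16, and 5 of them were below 0, against 46.5% of all measured genes, and 1 above 0, against 53.3%.

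**Figure D1:**
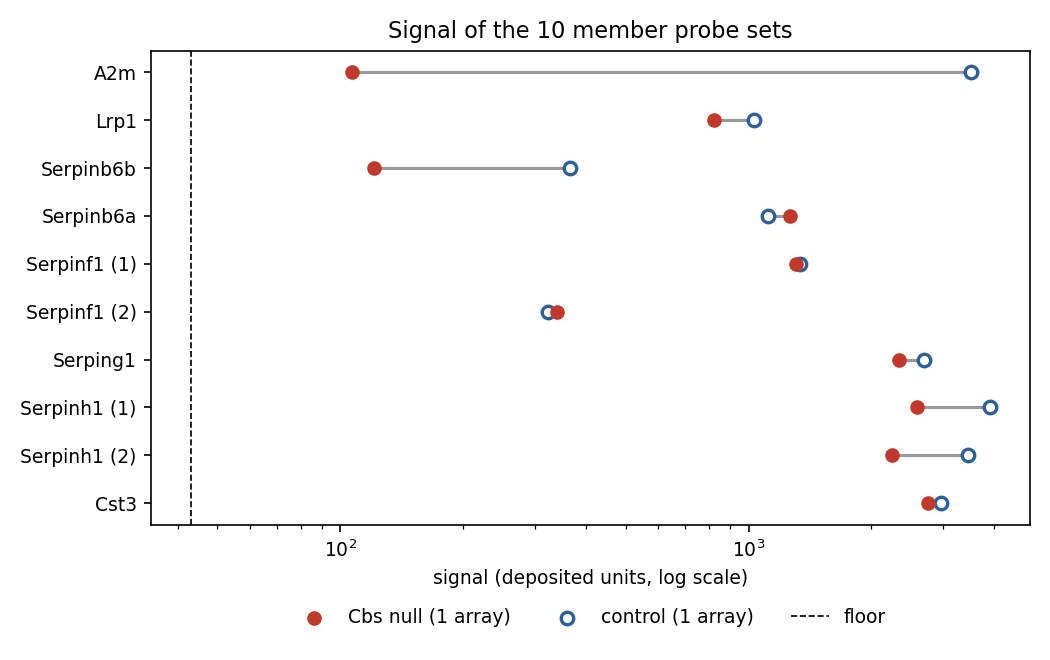
Signal of each of the 10 member probe sets (log axis, deposited units) in the Cbs null sample (filled red) and the control sample (open blue), 1 array each, with the floor of 43.2 as a dashed line. A2m spans from 106.9 in the Cbs null sample to 3510 in the control sample, Serpinb6b and both Serpinh1 probe sets are also lower in the Cbs null sample, and the other pairs of points lie close together.

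A2m, the protease trap, had the lowest ratio among genes that exceeded the floor in both samples. Its probe set read 106.9 in the Cbs null sample and 3510 in the control sample. That is 32.8-fold lower, a log2 ratio of -5.04. The Cbs null signal was still 2.47 times the floor, so at this floor the fold is a measured ratio and not a bound. Of these 7942 genes, 0 had a lower ratio. Among them, the nearest by the difference in log2 ratio were Tac2, the neurokinin B precursor, at -4.44, Rrm2, a ribonucleotide reductase subunit, at -2.32, and the chemokine gene Cxcl14 at -2.13, a likeness that rests on 2 samples. Genes under the floor in the Cbs null sample have bounds in place of ratios and were not ranked. A2m was represented by 1 probe set, so no second probe set bears on its value.

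The relatives of A2m gave no comparable signal in either sample. Pzp, the pregnancy zone protein gene, which the RefSeq table also lists under the older name A2m, read 12.5 in the Cbs null sample and 4.1 in the control sample. The murinoglobulin gene Mug1 read 8.2 and the complement C5 gene Hc 0.5 in the Cbs null sample, against 3.6 for Mug1 and 13.1 for Hc in the control sample. Cd109, a membrane-bound relative, read 37.9 in the Cbs null sample and 26 in the control sample. These 4 genes lay below the floor on both arrays. A2m was therefore the sole measured gene of the 5 with a probe set of their own, from a list of 10 in the alpha-macroglobulin and complement family.

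Some decidual and natural killer cell markers, though not whole lists of them, stood low beside A2m. Of 6 decidual markers, 2 passed 2-fold, both lower in Cbs null tissue, against 0.714% of all measured genes lower by that margin. Tdo2, a tryptophan-degrading dioxygenase, read 27.4 in the Cbs null sample and 685.3 in the control sample, at least 15.9-fold lower. Prl8a2, a decidual prolactin family gene, read 5.8 and was at least 9.82-fold lower than the 424.4 of the control sample. The other 4 decidual markers, Bmp2, Hand2, Hoxa10 and Wnt4, had log2 ratios of 0.02, 0.10, 0.19 and 0.48. The summed signal of the decidual list was 1733 in the Cbs null sample and 2602 in the control sample. The sum of the 5 natural killer markers was 254.5 in the Cbs null sample and 496.7 in the control sample, with Ncr1 below the floor in both samples. That difference was carried by the granzyme genes Gzma and Gzmb, while Klrd1 read 123.3 in the Cbs null sample and 133.3 in the control sample. The part of either cell type in the A2m difference was not tested, and in whole tissue fewer cells of a type and less RNA per cell cannot be told apart. The 3 trophoblast markers on the array were below the floor in both samples, with Hand1 at 16.5 in the Cbs null sample and 24 in the control sample. Of the 4 liver plasma protein markers on the array, Apoa1 and Fgb were below the floor in both samples. Albumin (Alb) was near it, at 63.6 in the Cbs null sample and 45.1 in the control sample. Ttr, which carries most of the list's summed signal of 184.7 in the Cbs null sample, against 75.9 in the control sample, read 110 in the Cbs null sample and 15.1, under the floor, in the control sample.

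Lrp1, the receptor that clears alpha-2-macroglobulin complexes, differed little. It read 824.3 in the Cbs null sample and 1031.3 in the control sample, 1.25-fold lower, and 10.94% of measured genes had a lower ratio. The log2 ratio of -0.32 is a little over 2 times the technical SD for bright probe sets, a spread between probe sets and not between arrays. Of 6 measured genes in the LDL receptor family and its chaperone, Lrp1 included, none was 2-fold apart, against 1.51% of all measured genes. The list median of 0.07 lay near the 0.02 of all genes. The chaperone gene Lrpap1, which guards Lrp1 from early ligand binding, read 1401 in the Cbs null sample and 1573.8 in the control sample in its brightest probe set, a log2 ratio of -0.17. Its other 3 probe sets stood at -0.25, 0.31 and 0.35, so the gene had no settled direction. The very low density lipoprotein receptor gene Vldlr stood at 0.07.

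The other ligands and partners of Lrp1 also kept within 2-fold, where only 1.51% of all measured genes were 2-fold or more apart. Of 17 measured ligand genes, 10 were lower and 7 higher in the Cbs null sample (11 and 6 after centring), with a median log2 ratio of -0.06. Over all measured genes, 46.5% were below 0 and 53.3% above. Fibronectin (Fn1) had the lowest ratio at -0.60, with 2297.5 in the Cbs null sample and 3475.4 in the control sample, and its second probe set stood at -0.45. Lipoprotein lipase (Lpl) stood at -0.54 and apolipoprotein E (Apoe) at 0.52, a pair chosen after inspecting the values. The calreticulin gene Calr stood at -0.33. Among 12 adaptor and shedding genes, ratios ran from -0.35 to 0.12. The endosomal adaptor Snx17 stood at 0.08, the sheddase Adam10 at 0.05 and Bace1 at 0.10.

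**Figure D2:**
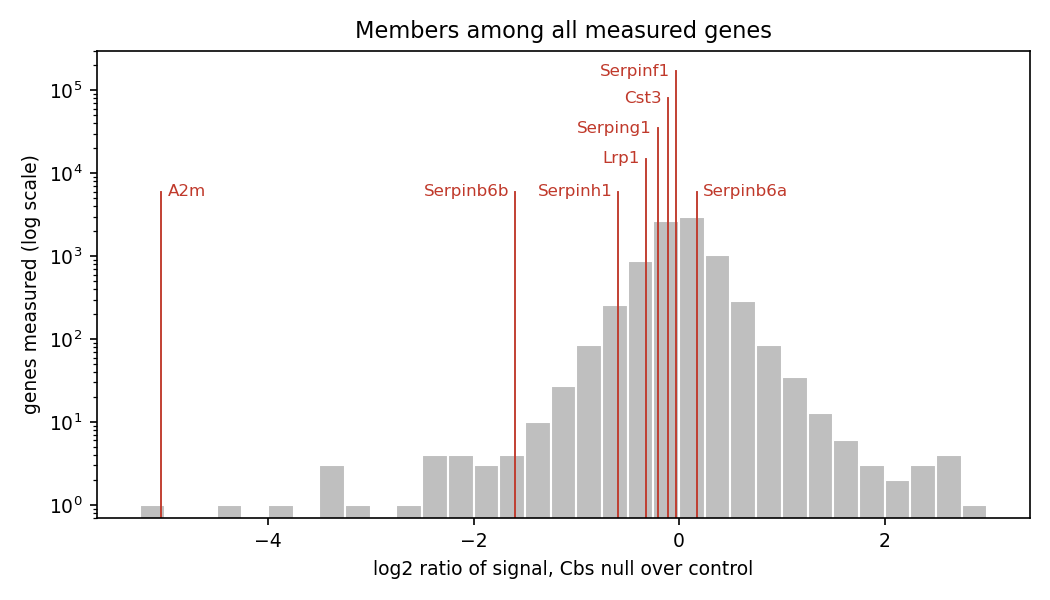
Histogram of the log2 ratio of Cbs null over control (x axis) for 8407 measured genes (y axis, number of genes, log scale), with a red line at the ratio of each of the 8 members; line heights differ only to fit the names. A2m at -5.04 and Serpinb6b at -1.60 lie in the lower tail, Serpinh1 at -0.59 on its edge, and the other 5 members in the bulk.

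Serpinb6b, an intracellular clade B serpin that inhibits granzyme A in the mouse, was the second member chosen for its low value. It read 120.9 in the Cbs null sample and 365.3 in the control sample, 3.02-fold lower, a log2 ratio of -1.60. The Cbs null signal was 2.80 times the floor and rests on 1 probe set. Of the same 7942 genes, 10 had a lower ratio. The nearest ratios over these 2 samples were those of Npy, the neuropeptide Y precursor, at -1.60, Penk, the enkephalin precursor, at -1.50, and the metalloproteinase inhibitor gene Timp1 at -1.47.

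Serpinb6a, the closest relative of Serpinb6b among the members and an inhibitor of cathepsin G and other serine proteases, was not lower. It read 1260 in the Cbs null sample and 1117.9 in the control sample, 1.13-fold higher, a log2 ratio of 0.17 that is close to the technical SD. Serpinb6c, the third gene of this subgroup on the array, was below the floor in both samples. Granzyme A (Gzma) itself read 39.7 (under the floor) in the Cbs null sample and 113.2 in the control sample, at least 2.62-fold lower. Serpinb9, which inhibits granzyme B, read 169.2 in the Cbs null sample and 274.8 in the control sample, 1.62-fold lower. Granzyme B (Gzmb) read 12.6 in the Cbs null sample and was at least 4.12-fold lower than the 177.8 of the control sample. Both granzymes are genes of uterine natural killer cells, whose other markers Klrd1 and Prf1 stood at -0.11 and -0.22. Prf1 read 43.5 in the Cbs null sample and 50.6 in the control sample, so near the floor that hardly any drop could show. The contrast with the granzymes therefore rests on Klrd1. The share of uterine natural killer cells in the Serpinb6b and Serpinb9 values was not tested.

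Across the serpin family, most genes gave too little signal to compare. Of 30 serpin genes on the array, 10 were measured, 1 was lower and 1 higher in Cbs null by 2-fold or more, where 1.51% of all measured genes were 2-fold apart in either direction. The lower one was Serpinb6b. The higher one was Serpinb11, a clade B serpin, with 352 in the Cbs null sample and 123.8 in the control sample, 2.84-fold higher. The median log2 ratio of the 10 was -0.13. Of the 5 measured serpins that are no members, Serpinb1a, an inhibitor of neutrophil proteases, stood at -0.06. Serpina3n, an acute-phase serpin named because of its value, was 1.51-fold lower, but its 44.2 in the Cbs null sample was barely above the floor and the control sample read 66.9. Serpinb7, likewise named, read 49.4 in the Cbs null sample and 14.2, under the floor, in the control sample. Of clade A, the plasma serpins made mainly by liver, 1 of 8 genes was measured, and of clade B, 6 of 14. The antithrombin gene Serpinc1 and the antiplasmin gene Serpinf2 were below the floor in both samples.

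**Figure D3:**
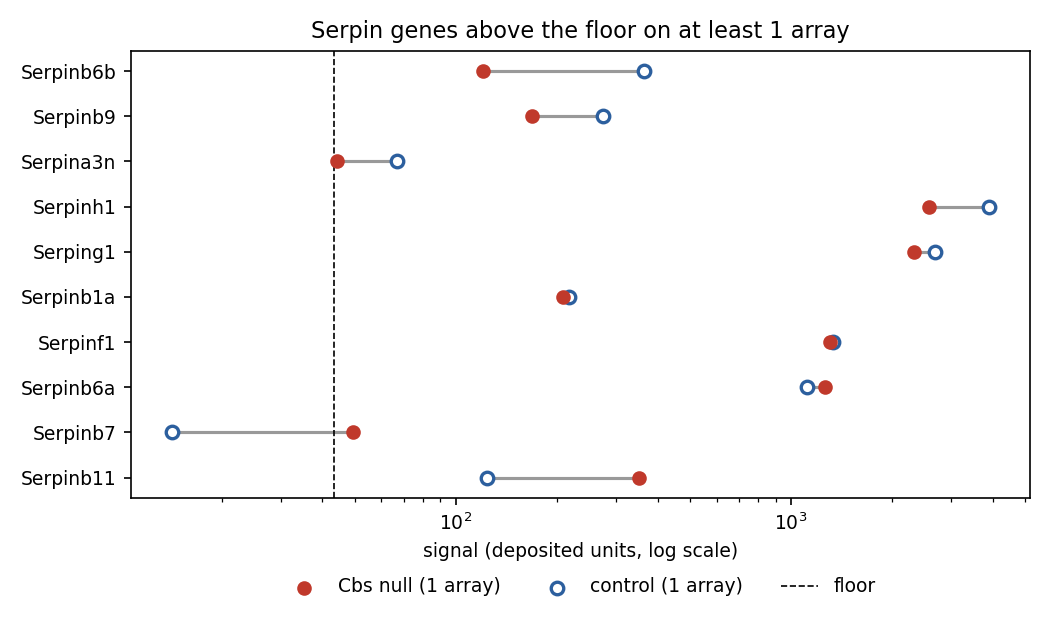
Signal (log axis, deposited units) of the 10 measured serpin genes, in the Cbs null sample (filled red) and the control sample (open blue), ordered by log2 ratio with the lowest on top. Serpinb6b and Serpinb11 are the genes at least 2-fold apart, in opposite directions, and the control point of Serpinb7 lies below the dashed floor of 43.2.

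Serpinh1, the collagen chaperone Hsp47 of the endoplasmic reticulum, was the third lowest member and the lowest that was not picked for its value. Its brighter probe set, of the x_at type that can share probes with other transcripts, read 2588.5 in the Cbs null sample and 3897.8 in the control sample, 1.51-fold lower. The other probe set read 2247.4 in the Cbs null sample and 3453 in the control sample, 1.54-fold lower. The log2 ratios of -0.59 and -0.62 lay close together and were about 4 times the technical SD of bright probe sets. That SD does not cover noise between arrays. Among measured genes, 3.4% were at least 1.5-fold lower, and 3.28% had a lower ratio than the brighter Serpinh1 probe set.

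The collagens that Hsp47 folds and the enzymes that modify them were lower with it. Of 24 measured genes on this list, 23 had a log2 ratio below 0, against 46.5% of all measured genes, and the list median was -0.46 against 0.02. None was 2-fold apart by its brightest probe set, and 9 were at least 1.5-fold lower, against 3.4% of all measured genes. The most abundant signals belonged to the fibrillar collagen genes Col3a1 and Col1a2, at -0.17 and -0.29, and to Col6a2 at -0.25. Further down, named because of their values, stood Col1a1 at -0.63, the crosslinking enzyme gene Lox at -0.73 and the procollagen processing enhancer gene Pcolce at -0.98. Second probe sets gave -0.93 for Col1a1, -0.76 for Lox, -0.76 for Col1a2 and -1.23 for Pcolce, the last past 2-fold. Plod3, a lysyl hydroxylase gene, was the exception at 0.02. The 5 smooth muscle markers were lower as well, where 46.5% of all measured genes were below 0. They ran from -0.07 for Acta2, the brightest, and -0.30 for Myh11 to -0.77 for Actg2. Their summed signal was 20122 in the Cbs null sample and 25674 in the control sample. The 5 stromal markers summed to 24127 in the Cbs null sample and 25653 in the control sample, with Col1a1 at -0.63, Lum at -0.19, Col3a1 at -0.17, Pdgfra at 0.11 and Dcn at 0.26. Col1a1 and Col3a1 are also on the collagen list, and the others did not share a direction. The part of these cell types in the Serpinh1 value was not tested.

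Serping1, the C1 inhibitor, and Serpinf1, the antiangiogenic factor PEDF, were close to the control sample. Serping1 read 2332.2 in the Cbs null sample and 2691.8 in the control sample, a log2 ratio of -0.21. Its target proteases went the other way by a similar margin, with C1ra at 0.25 and C1s1 at 0.29, while Masp1 stood at 0.03. Serpinf1 read 1308.1 in the Cbs null sample and 1336.6 in the control sample, a log2 ratio of -0.03. Its second probe set read 339.4 in the Cbs null sample and 321.9 in the control sample, at 0.08, so no direction was seen. The 7 measured PEDF receptor and partner genes ran from -0.33 to 0.31. The laminin receptor gene Rpsa stood at 0.20, the lipase gene Pnpla2 at -0.01 and Atp5b at -0.29.

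Cst3, the secreted inhibitor of cysteine cathepsins, read 2746.2 in the Cbs null sample and 2958.1 in the control sample, a log2 ratio of -0.11, within the technical SD. Cstb, an intracellular cystatin, stood at 0.03, and the other 11 cystatin family genes on the array were below the floor in both samples. All 10 genes on a list of cysteine cathepsins and legumain were measured and none was 2-fold apart, against 1.51% of all measured genes. Cathepsin B (Ctsb) stood at 0.14, cathepsin L (Ctsl) at -0.18 and cathepsin Z (Ctsz) at -0.38. The list median was 0.15, with 7 genes above 0, or 6 after centring, against 53.3% of all measured genes before centring. Ctss and Lgmn, chosen after inspecting the values, were highest at 0.49 and 0.46. The 5 macrophage markers were higher too, from 0.17 for Cd68 to 0.72 for Lyz2, where 53.3% of all measured genes were above 0. Their summed signal was 2733 in the Cbs null sample and 1754 in the control sample. The part of macrophages in the values above was not tested.

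Other secreted inhibitors and serine proteases showed larger differences in both directions. Of 17 measured inhibitors outside the serpin, cystatin and macroglobulin families, 2 were higher and 2 lower by 2-fold or more, against 0.797% higher and 0.714% lower over all measured genes. Wfdc18 was 6.11-fold higher in the Cbs null sample, and Spink1, which encodes a trypsin inhibitor, 5.04-fold higher. Lower were Timp1 (2.76-fold) and Tfpi2, a Kunitz-type inhibitor gene (2.02-fold). Timp1 read 69.3 in the Cbs null sample and 191.5 in the control sample. Tfpi2, which barely passed 2-fold, read 57.2 in the Cbs null sample and 115.6 in the control sample. Wfdc18 read 439.8 in the Cbs null sample and 72 in the control sample. Each of these 3 genes rests on 1 probe set with a weak signal in at least 1 sample. Of 15 measured serine protease genes, 3 passed 2-fold, against 1.51% of all measured genes in either direction. Prss28, an implantation serine protease of uterine glands, was 2.46-fold higher, Gzma and Gzmb were lower as given above, and the other 12 stayed under 2-fold. Prss29, the partner of Prss28, was 1.89-fold higher in its brightest probe set and 2.37-fold and 1.80-fold in the others. The 5 epithelial markers were higher as well, from 0.29 for Epcam to 0.90 for Krt19, where 53.3% of all measured genes were above 0. They summed to 4337 in the Cbs null sample and 2841 in the control sample, and their part was not tested.

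**Figure D4:**
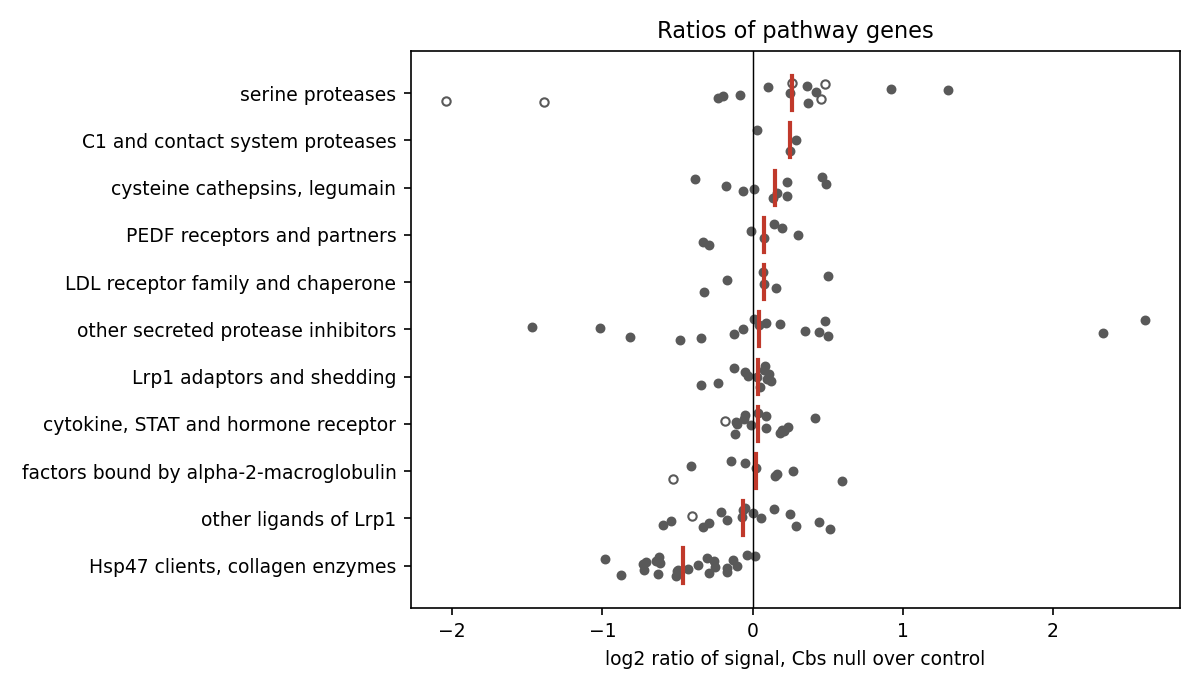
Log2 ratio of Cbs null over control (x axis) for each measured gene of 11 lists around the members (1 row each), with the list median as a red bar and open circles for genes above the floor on 1 array, whose ratio is a bound. The collagen list at the bottom has a median of -0.46, whereas the medians of the other lists lie between -0.06 and 0.26.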

How the data were processed

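Biotin-labelled cRNA from 2 microg of total RNA was hybridised to Affymetrix arrays, per the labels' protocols. The deposited values are linear intensities, 1 for each probe set of an array. The submitters' processing notes name GCOS 1.4. How probes were summarised is not given in the sources used here. Trimmed by 2%, the means were 200.07 for Cbs null and 200.08 for control, so values were used as deposited. Of 22690 probe sets, 64 were controls, 20380 had 1 gene symbol, 691 several and 1555 none. Where a gene had several 1-symbol probe sets, the one of highest mean log2 signal stood for it. The technical SD was the SD of the difference between 2 probe sets of a gene over the square root of 2, over 2757 genes (0.22). Its calculation was run on simulated data with independent noise for each probe set. The simulation held no noise shared by the probe sets of a gene, so it cannot show whether this SD covers the noise between arrays. Python 3.11.15, numpy 2.4.6 and pandas 2.3.3 were used.

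The members and lists were chosen with earlier results of these data known. Named genes were all members and, in most lists, genes at least 2-fold apart or else the 3 of highest signal. Also named were measured serpins above 172.8 on an array, and the 3 genes nearest in ratio to A2m and Serpinb6b. Cell type markers and some further genes were named outside this rule. Alternatives were centring, quantile normalization, a floor at the 20th or at the 60th percentile, a pseudocount of 16, averaging probe sets, leaving out _s_at and _x_at probe sets, and thresholds of 1.5-fold and 3-fold. The number of arrays limits the precision.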

Additional observations from a re-analysis of the deposited data

How the results depend on the processing

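Under 7 alternatives of scaling, floor and probe set choice, each of the 8 member ratios moved by less than the technical SD of 0.22. Several of these could not move most members, because all 8 lay above the main floor on both arrays and 6 had 1 probe set. The floor at the 20th percentile left each of the 8 ratios as it was. Averaging probe sets or leaving out _s_at and _x_at probe sets left those 6 unchanged. A2m stayed between -5.05 and -4.84, Serpinb6b between -1.61 and -1.48 and Serpinh1 between -0.62 and -0.57, whereas Serpinf1 ran from -0.05 to 0.02 and so crossed 0. The A2m range includes 1 bound. Its Cbs null signal of 106.9 lay under the highest floor tried, 120.34, so its -4.87 there is no measured ratio. The Serpinb6b signal of 120.9 in the Cbs null sample barely cleared that floor. The count of members at least 2-fold apart was 2 under each of these 7 alternatives and at 3-fold, and 3 at 1.5-fold, where Serpinh1 joined. The count of serpin genes at least 2-fold apart, 2, became 3 with the pseudocount of 16, 5 with the floor at the 20th percentile, 5 at a threshold of 1.5-fold and 1 at 3-fold. The count over all genes, 127, became 455 with the floor at the 20th percentile, 61 at the 60th, 591 at 1.5-fold and 38 at 3-fold. Under the other alternatives it ran from 105 to 145. A lower floor or threshold admits more genes by construction. The collagen list kept 23 of 24 genes below 0 after centring and after quantile normalization. No paired analysis was possible because each group had 1 array. Signals near the floor, such as those of Serpina3n and Serpinb7, give no reliable order.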

Other observations

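The measured genes around A2m and Serpinb6b on their chromosomes are listed as a description, and Serpinb9, next to Serpinb6b, was also lower. A2m and Serpinb6b were chosen for their drop, so a contrast with their neighbours was largely set by that choice. Of the 3 nearest measured genes on each side of A2m on chromosome 6, in the gene order of the RefSeq table, log2 ratios ran from -0.20 for Pex26 to 0.54 for Usp18, an interferon-induced deubiquitinase gene. Klrg1, a natural killer and T cell receptor gene and the nearest measured gene on the far side of A2m, stood at 0.11 close to the floor. Around Serpinb6b on chromosome 13, the adjoining gene Serpinb9 stood at -0.70, 1.62-fold lower, where 3.4% of measured genes were at least 1.5-fold lower. Serpinb1a stood at -0.06, Serpinb6a at 0.17 and Nqo2, a quinone reductase gene, at 0.38. Tac2, the gene nearest to A2m in ratio, lies 5 protein-coding genes from Lrp1 on chromosome 10, and the genes between them that were measured, Stat6 and Nab2, stood at -0.15 and -0.35.

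Measured genes of the cytokine and STAT pathway that acts on A2m in the rat, and of factors that its product binds, lay within 2-fold of the control sample. Of 15 measured cytokine receptor, STAT and hormone receptor genes, none was 2-fold apart, against 1.51% of all measured genes. Their median log2 ratio was 0.04. The ligand genes Lif and Il11 were below the floor in both samples. Pgr, the progesterone receptor gene, read 36.8 (under the floor) in the Cbs null sample and 49.1 in the control sample. These are RNA signals, and the part of this pathway in the A2m difference was not tested. Stat3 read 1082.4 in the Cbs null sample and 1015.5 in the control sample. The shared cytokine receptor gene Il6st read 1105.7 in the Cbs null sample and 965.1 in the control sample, and Cebpd stood at 0.18. Socs3, a feedback inhibitor of STAT3 signalling chosen after inspecting the values, was highest at 0.42, with 0.44 and 0.27 in its other probe sets. Of 9 measured growth factor and cytokine genes whose products bind alpha-2-macroglobulin, none was 2-fold apart either. Tgfb2 stood at -0.41, Vegfa at -0.14 and Inhbb at 0.15, and Bmp4, chosen likewise, was highest at 0.59. Inhba, also chosen likewise, was lowest at -0.53, a bound, with 36.5 under the floor in the Cbs null sample and 62.5 in the control sample.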
